A study of Mus musculus with 4 samples.

Results

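The matrix metalloproteinases (Mmp), the *Adamts* proteases and the tissue inhibitors of metalloproteinases (Timp) were followed across 4 arrays of mouse subcutaneous adipose tissue. Members were all genes whose symbol in the platform annotation begins with Mmp, Timp or Adamts and a digit, taken from probe sets that name 1 gene. This rule gave 44 of 19938 measured genes, with 22 *Mmp*, 18 *Adamts* and 4 *Timp* genes. *Mmp15* and *Adamts2* also carry such a symbol in RefSeq but were named by no probe set used here, and they were not analysed.

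The tissue came from C57Bl6 mice aged 16 weeks. Wild-type mice (WT) carried NAPE PLD lox/lox without Cre. The knockout mice (cKO) carried the same floxed allele with AP2 Cre, a recombinase driven by the *Fabp4* promoter, which is active in adipocytes. It has also been reported active in some other cells, such as macrophages, and most cell types other than adipocytes retain the gene. In this model the paper found no *Napepld* difference between peritoneal macrophages of WT and cKO mice. In white fat it found lower expression in the adipocyte fraction but not in the stromal vascular fraction. Each genotype was fed a control diet (CT, AIN93M) or a high-fat diet (HFD, D12492), which gave the WT-CT and cKO-CT groups and the WT-HFD and cKO-HFD groups. RNA from 4 to 5 mice by the labels, and 5 by the methods, was pooled per group after selection on RNA quality and hybridized to 1 array, so the spread between mice was not measured, and differences between groups stand without replicates and without p-values. The values are log2 levels per gene, and "rose" or "fell" is used for a difference of at least 1.5-fold between 2 arrays (0.585 on the log2 scale).

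Metalloproteinases are zinc enzymes that cut extracellular matrix. Collagenases open fibrillar collagen, gelatinases cut denatured and basement membrane collagen, stromelysins cut proteoglycans and activate other family members, and membrane-type enzymes act at the cell surface. The *Adamts* enzymes are secreted relatives that trim procollagen or cleave large proteoglycans such as aggrecan and versican. *Timp* proteins bind the active site of these enzymes and block it. In adipose tissue this system remodels the collagen sheath around adipocytes when fat pads grow and during adipogenesis.

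The libraries were adipose by their markers: all 8 adipocyte markers lay above the background defined below on every array, and their summed level, in log2, was between 15.16 on WT-CT and 15.47 on cKO-HFD. *Napepld*, the targeted gene, had log2 levels of 8.31 in WT and 7.78 in cKO on the control diet, and 8.01 and 7.94 on the high-fat diet, neither genotype difference reaching 1.5-fold, though with cyclic loess normalization the first did (-0.62 on the log2 scale). Whether its probes cover the floxed exon is not given in the sources used here, so this level does not check the labels. The paper reports that NAPE-PLD protein was undetectable in cKO white fat. It also reports lower *Napepld* mRNA in cKO fat depots on each diet. Other tissues were also represented. The summed log2 level of 10 skeletal muscle markers was 13.29 for WT-CT and 13.44 for cKO-CT but 14.99 for WT-HFD and 11.08 for cKO-HFD. That of 7 pancreatic acinar markers was 10.46 for WT-CT and 7.99 to 8.25 elsewhere. In a tissue sample, fewer cells of a type and less RNA per cell cannot be told apart.

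Promoter sequences are shown for *Mmp12*, *Timp2* and *Timp3*, which passed 1.5-fold below, and for *Mmp3* and the undetected *Mmp13*, neighbours of *Mmp12*, because promoter motifs differed within the family. *Mmp2*, *Adamts5* and *Adamts7* also passed, but their windows were not analysed here. RefSeq (GRCm38.p6) gave a window of 250 bases before and 50 bases after the annotated start for 30 of the 44 members, in 33 windows. The short motifs searched, on both strands, were the AP-1 element TGAGTCA, the GC box GGGCGG and the TATA box TATAAA. They were present in 5.20%, 35.7% and 13.6% of all 32851 promoter windows of the same length. *Mmp12*, *Mmp3* and *Mmp13* are neighbours on chromosome 9, and *Timp2* and *Timp3* have no other member beside them. Capitals mark the motif letters, 5′ to 3′ on the strand of the gene.
Mmp12 (chr9:7347124-7347423, + strand): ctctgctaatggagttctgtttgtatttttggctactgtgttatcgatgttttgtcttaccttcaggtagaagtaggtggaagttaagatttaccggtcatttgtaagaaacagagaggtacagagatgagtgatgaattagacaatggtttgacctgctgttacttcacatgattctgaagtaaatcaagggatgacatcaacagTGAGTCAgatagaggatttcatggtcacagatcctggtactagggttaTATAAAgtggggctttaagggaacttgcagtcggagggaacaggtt
Mmp3 (chr9:7445572-7445871, + strand): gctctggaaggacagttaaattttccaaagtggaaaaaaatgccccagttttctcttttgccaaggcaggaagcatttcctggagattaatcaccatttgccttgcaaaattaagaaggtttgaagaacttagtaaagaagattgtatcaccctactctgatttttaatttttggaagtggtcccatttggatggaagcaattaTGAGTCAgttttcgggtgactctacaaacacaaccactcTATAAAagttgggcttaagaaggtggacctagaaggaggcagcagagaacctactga
Mmp13 (chr9:7272264-7272563, + strand): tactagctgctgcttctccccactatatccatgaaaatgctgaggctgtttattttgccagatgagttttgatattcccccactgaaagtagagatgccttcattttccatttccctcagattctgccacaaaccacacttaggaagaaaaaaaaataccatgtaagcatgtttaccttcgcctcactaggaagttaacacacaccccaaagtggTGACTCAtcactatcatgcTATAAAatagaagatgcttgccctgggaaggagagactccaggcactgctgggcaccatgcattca
Timp2 (chr11:118355362-118355661, - strand): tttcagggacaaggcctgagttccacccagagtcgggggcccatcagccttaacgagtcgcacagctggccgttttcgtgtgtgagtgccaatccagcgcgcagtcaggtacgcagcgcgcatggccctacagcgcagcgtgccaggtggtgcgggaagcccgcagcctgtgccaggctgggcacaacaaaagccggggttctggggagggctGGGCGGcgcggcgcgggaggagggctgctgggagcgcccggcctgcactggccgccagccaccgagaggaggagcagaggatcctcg
Timp3 (chr10:86300162-86300461, + strand): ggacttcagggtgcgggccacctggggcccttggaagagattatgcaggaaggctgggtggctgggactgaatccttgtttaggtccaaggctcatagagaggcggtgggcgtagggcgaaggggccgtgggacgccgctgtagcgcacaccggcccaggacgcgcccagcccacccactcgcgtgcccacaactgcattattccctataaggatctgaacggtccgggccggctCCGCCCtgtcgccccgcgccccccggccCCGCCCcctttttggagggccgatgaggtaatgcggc
The windows of *Mmp12*, *Mmp3* and *Mmp13* each held 1 AP-1 element upstream of 1 TATA box and no GC box. The *Timp2* window held 1 GC box and the *Timp3* window 2, with neither of the other motifs. *Mmp12* has another annotated start, whose window held none of the 3 motifs. The GC content was 40.7% for this *Mmp12* window, 40.0% for *Mmp3* and 43.7% for *Mmp13*, against 68.7% for *Timp2* and 67.0% for *Timp3*, with a median of 52.7% over all windows.

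The same split ran through the family. On chromosome 9, 10 *Mmp* genes follow each other with no other protein-coding gene between them, in the order *Mmp13*, *Mmp12*, *Mmp1b*, *Mmp3*, *Mmp1a*, *Mmp10*, *Mmp8*, *Mmp27*, *Mmp20* and *Mmp7*. An AP-1 element was found for 7 of these 10 genes, each time with a TATA box in the same window, and for 0 of the 20 other members with a window. A TATA box was found for 9 of the 10 and for 2 of the other 20. A GC box was found for 0 of the 10 and for 16 of the other 20. A match is a run of letters and not a measured binding site.

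To ask which members could be told from background, each level was set against the 95th percentile of 1027 olfactory receptor (*Olfr*) genes on the same array, since these genes act mainly in olfactory neurons. On the CT arrays that level was 5.39 (WT) and 5.28 (cKO), and on the HFD arrays 5.42 and 5.50. On the CT arrays 25 (WT) and 26 (cKO) members exceeded it, and on the HFD arrays 23 and 24. On all 4 arrays 23 members exceeded it (52.3%, against 54.6% of all genes), 4 exceeded it on 1 or 2 arrays and 17 on none. Among those above it everywhere, *Adamts16* came closest, at 0.0486 above it on cKO-HFD, followed by *Mmp24* at 0.0542 on WT-HFD. Among those below it everywhere, *Mmp17* came closest, at 0.01 below it on WT-CT, followed by *Mmp10* at 0.02 below.

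**Figure D1:**
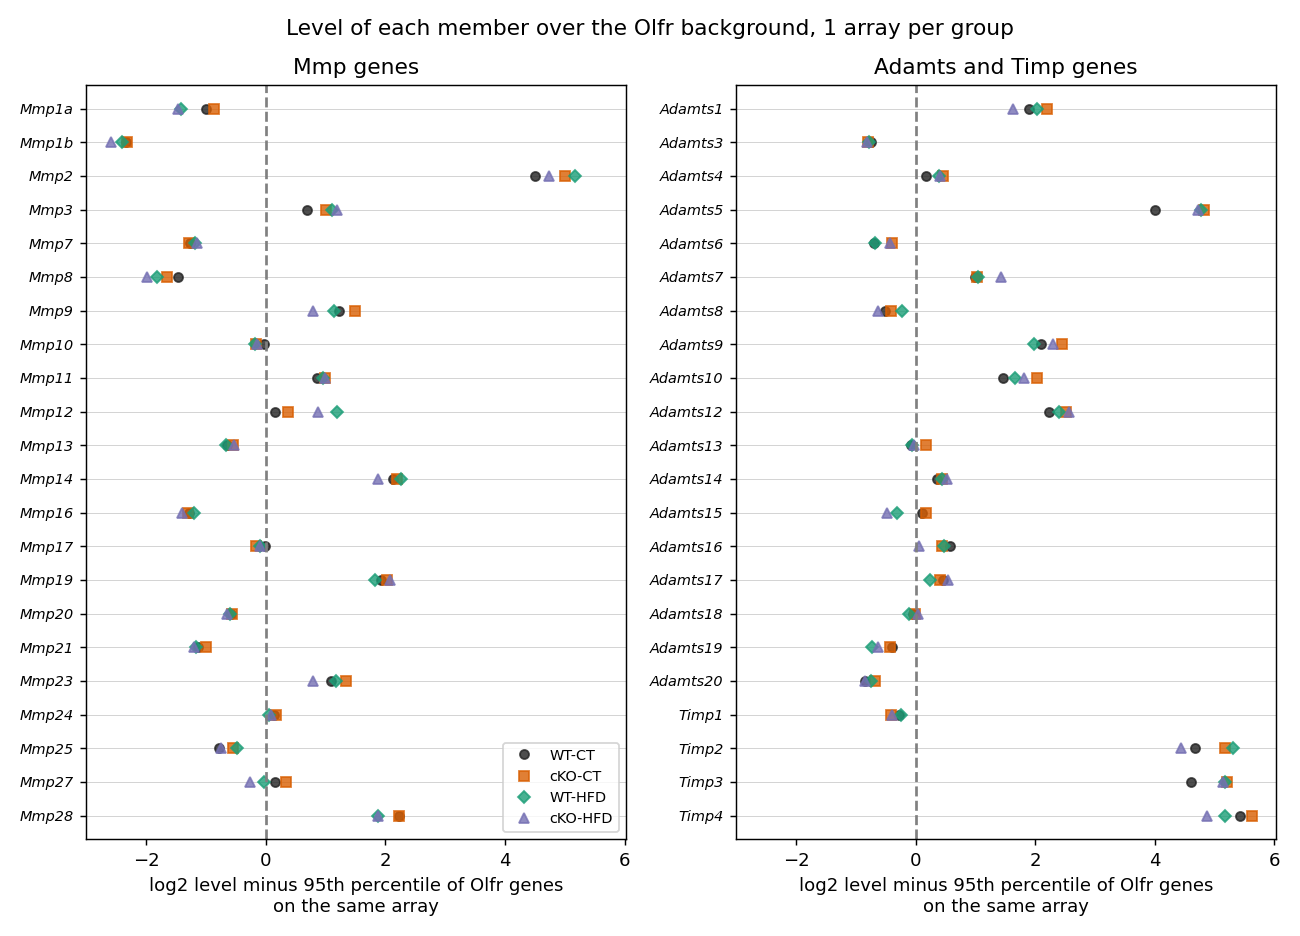
Log2 level of each of the 44 members minus the *Olfr* 95th percentile of the same array (horizontal axis), with 1 symbol per array and 1 array per group. The dashed line marks the background, and 23 members lie to its right on all 4 arrays while 17, among them *Timp1* and all 4 collagenases, lie to its left on all 4.

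By role, the classes held 2 to 9 measured members each, so their counts are descriptions. Of all genes, 54.6% exceeded the background on all 4 arrays. None of the 4 collagenases (*Mmp1a*, *Mmp1b*, *Mmp8* and *Mmp13*) exceeded the background on any array. Both gelatinases, *Mmp2* and *Mmp9*, did so on all 4. Of the 4 stromelysins and matrilysin, *Mmp3* and *Mmp11* exceeded it on all 4 arrays and *Mmp10* and *Mmp7* on none. Of the 5 membrane-type enzymes, *Mmp14* and *Mmp24* exceeded it on all 4 and *Mmp16*, *Mmp17* and *Mmp25* on none. The other *Mmp* genes above it on all 4 were *Mmp12*, *Mmp19*, *Mmp23* and *Mmp28*, while *Mmp20*, the enamel protease, and *Mmp21* were above it on none and *Mmp27* was above it on both CT arrays only (5.55 and 5.62, against 5.40 on WT-HFD and 5.23 on cKO-HFD).
Of the 7 proteoglycan-cleaving *Adamts* genes, *Adamts1*, *Adamts4*, *Adamts5* and *Adamts9* exceeded the background on all 4 arrays, *Adamts15* on both CT arrays only, and *Adamts8* and *Adamts20* on none. Of the 2 procollagen N-proteinases measured, *Adamts14* exceeded it on all 4 and *Adamts3* on none as the mean of its 16 probe sets, of which 2 exceeded it on all 4 arrays. Of the 9 other *Adamts* genes, *Adamts7*, *Adamts10*, *Adamts12*, *Adamts16* and *Adamts17* exceeded it on all 4. The call of *Adamts17* rests on the mean of 5 probe sets, of which 2 exceeded the background on all 4 arrays. *Adamts13*, which cleaves von Willebrand factor, exceeded it on cKO-CT only and *Adamts18* on cKO-HFD only, and *Adamts6* and *Adamts19* on none. Of the inhibitors, *Timp2*, *Timp3* and *Timp4* exceeded it on all 4 arrays and *Timp1* on none.

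Only 6 of the 44 members passed 1.5-fold in any of the 4 comparisons, and all 6 lay above the background on all 4 arrays: *Adamts5*, *Mmp2*, *Timp2*, *Timp3*, *Mmp12* and *Adamts7*. To ask what *Napepld* deletion changed on the control diet, cKO-CT was compared with WT-CT. Here 1 of the 44 members rose (1.64% of all genes did) and 0 fell (1.52%), with a median log2 ratio of 0.0011 over the members and -0.0050 over all genes. On the high-fat diet, in cKO-HFD over WT-HFD, 0 rose (1.04% of all genes) and 1 fell (2.11%), with medians of 0.04 and 0.03. To ask what the diet changed in wild-type mice, WT-HFD was compared with WT-CT: 5 members rose, or 11.4%, against 3.16% of all genes, and 0 fell (2.67%), with medians of 0.05 and -0.0040. In cKO-HFD over cKO-CT, 2 rose, or 4.55%, against 1.82% of all genes, and 0 fell (2.17%), with medians of 0.09 and 0.02. With 1 array per group these shares are descriptions, and each pair of comparisons that uses the same array, such as WT-CT in cKO-CT over WT-CT and WT-HFD over WT-CT, is not independent.

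**Figure D2:**
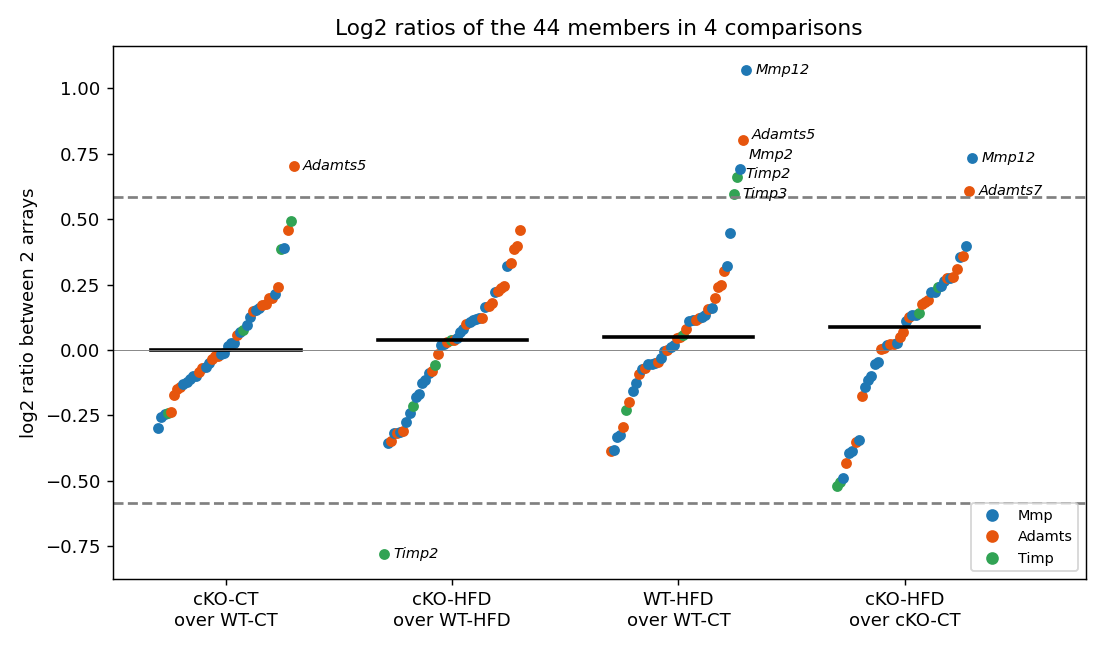
Log2 ratio between 2 arrays (vertical axis) of each of the 44 members in 4 comparisons, with points ordered by ratio, colours for the *Mmp*, *Adamts* and *Timp* families, black bars at the medians and dashed lines at 1.5-fold. In WT-HFD over WT-CT 5 members lie above the upper line and in the other comparisons 0 to 2 do, and *Timp2* in cKO-HFD over WT-HFD (-0.78) is the 1 point below the lower line.

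Among the inhibitors, *Timp2* differed most between the arrays. *Timp2* encodes a secreted inhibitor that, at the cell surface, also helps the membrane-type enzyme of *Mmp14* to activate the precursor of the gelatinase of *Mmp2*. On the control diet its log2 level was 10.06 in WT and 10.45 in cKO, and on the high-fat diet 10.72 and 9.94, so WT-HFD was highest and cKO-HFD lowest. It rose 1.58-fold in WT-HFD over WT-CT and fell by 0.78 on the log2 scale in cKO-HFD over WT-HFD, a 1.72-fold difference. The genotype difference had opposite signs on the diets, with a log2 ratio of 0.39 on CT and -0.78 on HFD.
*Timp3*, the inhibitor that stays bound to matrix and also blocks sheddases and aggrecanases, was lowest on WT-CT. WT-CT had a log2 level of 9.997, against 10.49 for cKO-CT, 10.59 for WT-HFD and 10.63 for cKO-HFD, so the other arrays spanned only 0.14. The rise in WT-HFD was 1.51-fold, just past the size used, and after cyclic loess normalization (a smooth rescaling of the arrays to each other) it was 0.56 on the log2 scale, under that size. In cKO-CT over WT-CT the log2 ratio of *Timp3* was 0.49.
*Timp4*, whose expression is restricted to a few tissues with fat among them, passed 1.5-fold in no comparison. The log2 level in WT was 10.82 on the control diet and 10.59 on the high-fat diet, and in cKO 10.90 and 10.38, lower on both HFD arrays, and its largest difference was -0.52 in cKO-HFD over cKO-CT. *Timp1*, an inhibitor induced in many tissues by cytokines, stayed between 4.87 and 5.17, under the background on every array, so no difference in it could be resolved.

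**Figure D3:**
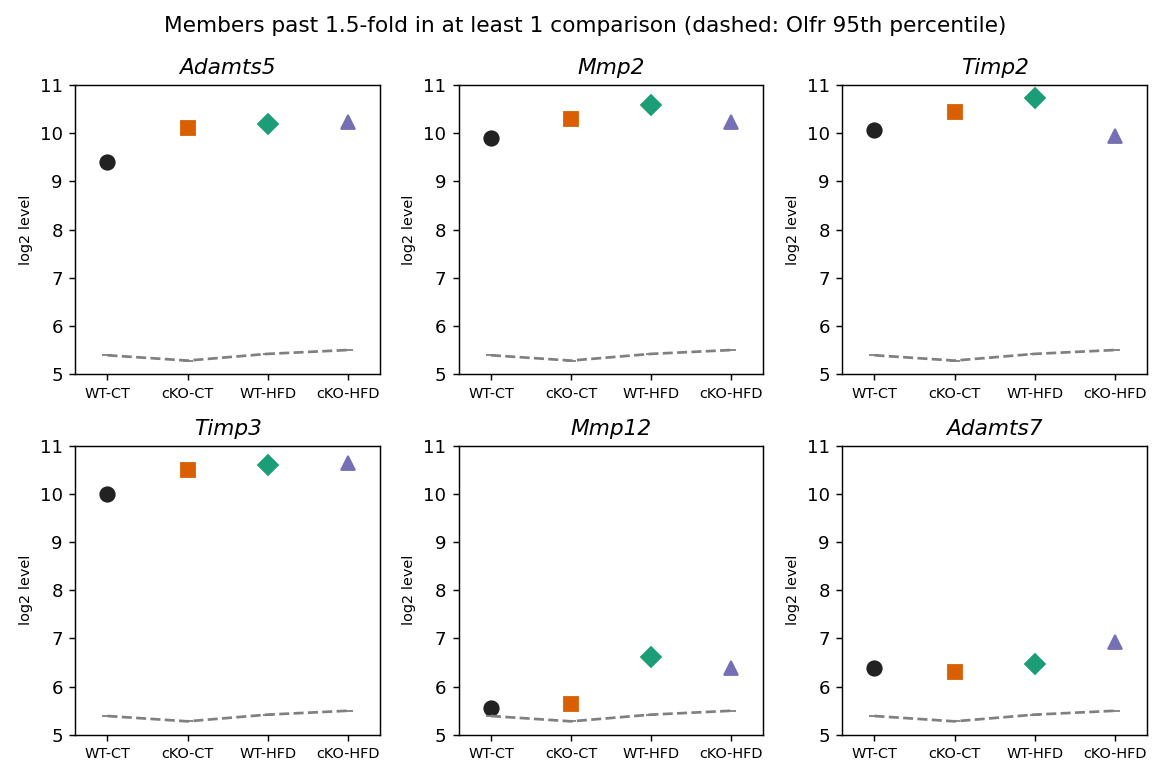
Log2 level (vertical axis, the same range in each panel) of the 6 members past 1.5-fold in at least 1 comparison on the array of each group, with the *Olfr* 95th percentile of that array dashed. *Adamts5* and *Timp3* are lowest on WT-CT, *Timp2* and *Mmp2* are highest on WT-HFD, *Mmp12* is higher on both HFD arrays and *Adamts7* is highest on cKO-HFD.

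The gelatinase *Mmp2* had log2 levels of 9.90 (WT) and 10.29 (cKO) on the control diet, and of 10.59 and 10.23 on the high-fat diet. As for *Timp2*, WT-HFD was highest, but here WT-CT was lowest. *Mmp2* rose 1.62-fold in WT-HFD over WT-CT, and its genotype difference was 0.39 on CT and -0.36 on HFD, neither past 1.5-fold. *Mmp14*, whose enzyme activates the *Mmp2* precursor, stayed between 7.37 and 7.68 and passed in no comparison. *Mmp9*, the other gelatinase, was between 6.29 on cKO-HFD and 6.78 on cKO-CT and also passed in none. *Reck*, a membrane-anchored inhibitor of *Mmp2*, *Mmp9* and *Mmp14* products and no member of the family, had log2 levels of 7.11 (WT) and 7.48 (cKO) on the control diet and 7.60 and 6.998 on the high-fat diet, and fell by 0.60 on the log2 scale in cKO-HFD over WT-HFD.
Markers of other cells moved on the same arrays. Of 5 stromal progenitor markers, *Pi16* and *Cd34* rose in WT-HFD over WT-CT, and *Pi16* and *Dpp4* fell in cKO-HFD over WT-HFD. *Pi16*, a marker of fascia-like adipose progenitors, had log2 ratios of 1.25 and -1.57 in these comparisons and *Dpp4*, a marker of the same cells, 0.47 and -1.39. In cKO-CT over WT-CT, *Pi16* (0.59) and *Pdgfrb* (0.60) rose. In cKO-HFD over cKO-CT, *Pi16* (-0.92) and *Dpp4* (-1.24) fell. *Pdgfrb* was the only marker of the 5 that was higher in cKO-HFD than in WT-HFD (0.39), and its level was highest on cKO-HFD. The summed log2 level of the 5 markers was 10.74 in WT and 11.22 in cKO on the control diet, then 11.44 and 10.97 on the high-fat diet, with all 5 above the background on each array. All 10 skeletal muscle markers fell in cKO-HFD over WT-HFD, with a median log2 ratio of -4.05, and 8 rose in WT-HFD over WT-CT. The part of progenitor or muscle RNA in the differences of *Timp2* and *Mmp2* was not tested.

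**Figure D4:**
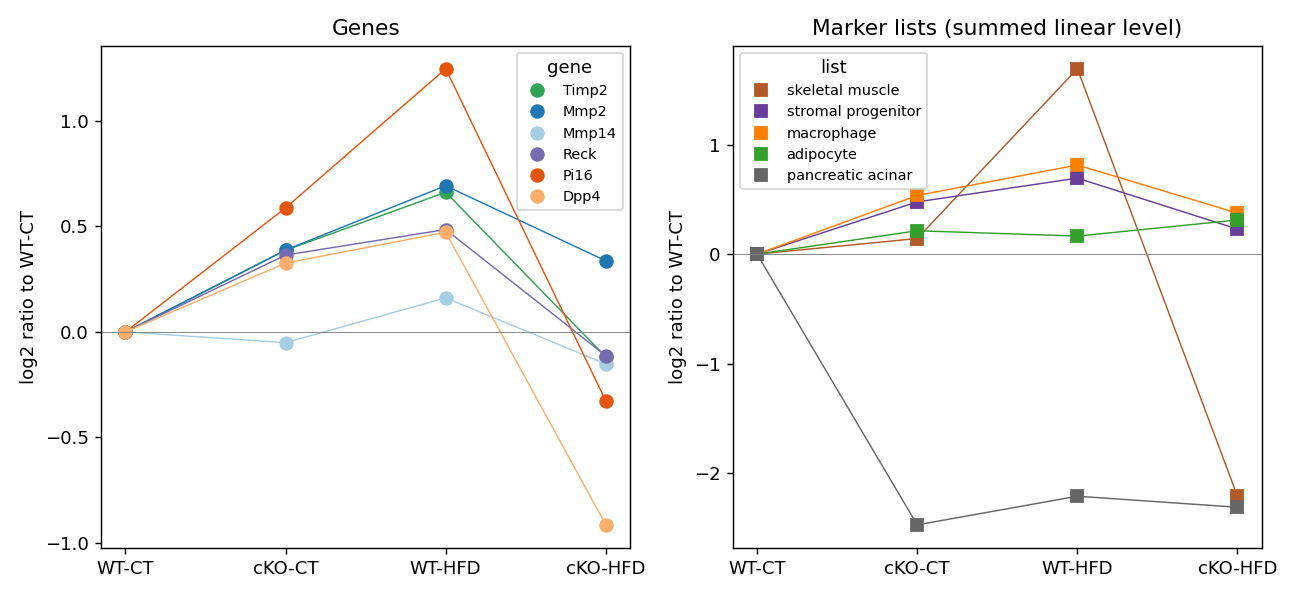
Log2 ratio to the WT-CT array (vertical axes) on each array, on the left for *Timp2*, *Mmp2*, *Mmp14*, *Reck*, *Pi16* and *Dpp4*, and on the right for the summed linear level of 5 marker lists, with lines only to join the points of 1 gene or list. Each gene on the left is highest on WT-HFD, as are the skeletal muscle, stromal progenitor and macrophage lists. *Timp2* ends at -0.12 on cKO-HFD while *Mmp2* ends at 0.34.

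*Mmp12*, the macrophage elastase, was the 1 member past 2-fold. Its log2 level was 5.55 on WT-CT and 5.65 on cKO-CT, only 0.16 and 0.37 over the background, and 6.62 on WT-HFD and 6.38 on cKO-HFD. Both HFD arrays were therefore above both CT arrays. *Mmp12* rose 2.10-fold in WT-HFD over WT-CT and 1.66-fold in cKO-HFD over cKO-CT, comparisons that share no array, while its genotype log2 ratios were 0.10 on CT and -0.24 on HFD.
Macrophage markers moved partly alongside. Of 12 such markers, all above the background except *Cd14* on WT-HFD, 8 rose in WT-HFD over WT-CT but 0 in cKO-HFD over cKO-CT, and 5 (*Adgre1*, *Cd68*, *C1qc*, *Laptm5* and *Tyrobp*) rose in cKO-CT over WT-CT, where *Mmp12* did not pass. Their summed log2 level was 11.91 (WT) and 12.45 (cKO) on the control diet, against 12.73 and 12.29 on the high-fat diet. Of 4 measured markers of lipid-associated macrophages, 3 (*Trem2*, *Gpnmb* and *Itgax*) rose in WT-HFD over WT-CT and 0 in cKO-HFD over cKO-CT, with median log2 ratios of 0.94 and 0.30. Their summed log2 level was 8.38 for WT-CT, 8.66 for cKO-CT, 9.28 for WT-HFD and 8.90 for cKO-HFD. The order of the arrays was thus the same for *Mmp12* and the summed lipid-associated list. It was not particular to that list, since *Cd68* and *Tyrobp* of the macrophage list had it too. Nor was it particular to macrophage genes. Of the collagen genes listed below, *Col1a2*, *Col3a1*, *Col6a1* and *Col6a3* had the same order, and the others did not. *Cd9* of the lipid-associated list did not have it. The part of macrophage number in the *Mmp12* difference was not tested.

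Of the neighbours of *Mmp12* on chromosome 9, *Mmp3*, or stromelysin-1, was the other gene above the background on all 4 arrays. In WT its log2 level was 6.08 on CT and 6.53 on HFD, and in cKO 6.29 and 6.69, again with both HFD arrays above both CT arrays, but its ratios to the CT array of the same genotype (0.45 and 0.40) stayed under 1.5-fold. The 7 neighbours below the background on all 4 arrays included *Mmp13*, whose collagenase degrades interstitial collagen in mice. An AP-1 element and a TATA box in the window, shown above for *Mmp12*, *Mmp3* and *Mmp13*, thus occurred with and without a detected level. *Mmp8*, the collagenase stored by neutrophils, was another of these 7. At most 1 of 8 neutrophil markers, *Elane*, lay above the background on an array, and 0 did on cKO-HFD. The summed log2 level of the 8 was nevertheless highest on cKO-HFD, at 7.99 against 7.64 to 7.80 elsewhere. *S100a8*, *S100a9* and *Ly6g* rose in cKO-HFD over WT-HFD, but they lay below the background on every array.

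**Figure D5:**
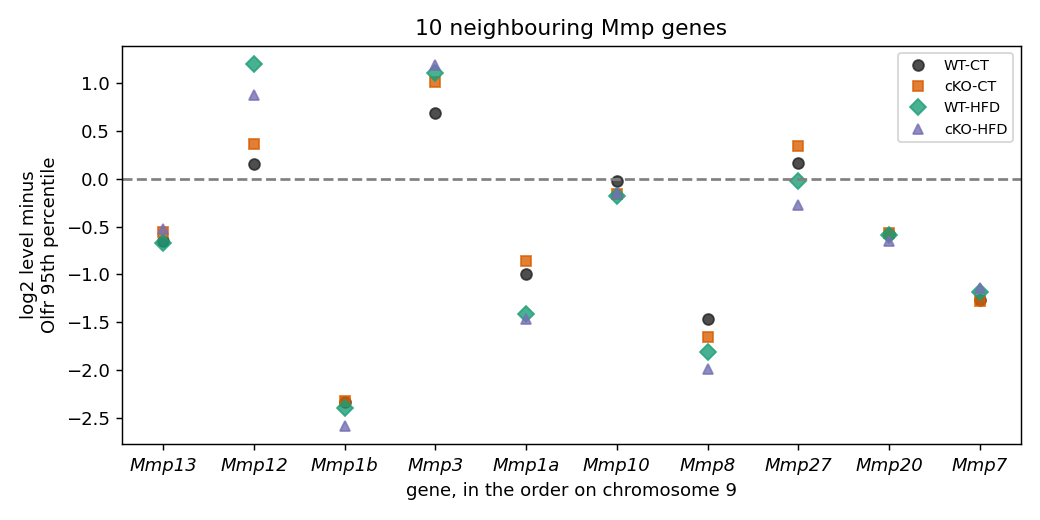
Log2 level minus the *Olfr* 95th percentile of the same array (vertical axis) for 10 neighbouring *Mmp* genes in their order on chromosome 9, with 1 symbol per array. *Mmp12* and *Mmp3* lie above the dashed background line on all 4 arrays, *Mmp27* on both CT arrays, and the other 7 on none.

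Among the *Adamts* genes, *Adamts5*, which encodes an aggrecanase that also cleaves versican, was lowest on WT-CT. WT-CT had a log2 level of 9.40, while cKO-CT had 10.10, WT-HFD 10.20 and cKO-HFD 10.23. The arrays other than WT-CT spanned 0.13. *Adamts5* rose 1.63-fold in cKO-CT and 1.74-fold in WT-HFD over WT-CT, and it was the 1 member that rose with genotype on the control diet. Both ratios use the single WT-CT array, which also stood apart by its acinar markers, so a difference of that array alone and a difference of the groups cannot be told apart. The summed levels of smooth muscle and endothelial markers were also lowest there, though not every marker was. This was not particular to these lists. The adipocyte, macrophage, lipid-associated macrophage, stromal progenitor and mast cell sums were lowest there too. The neutrophil, lymphocyte, skeletal muscle, acinar and epithelial sums were not. The summed log2 level of 6 smooth muscle markers was 10.58 for WT-CT and 11.26 to 11.73 elsewhere. That of 6 endothelial markers was 11.05 and 11.34 to 11.78, with all markers of both lists above the background on each array. *Cnn1*, *Lmod1* and *Des* of the smooth muscle list and *Kdr* of the endothelial list were lower on another array than on WT-CT. Of the smooth muscle list, *Acta2* rose in cKO-CT over WT-CT and *Acta2* and *Des* rose in WT-HFD over WT-CT, while 0 endothelial markers passed in either. *Des* moved in the directions of the skeletal muscle markers. Its log2 ratio was 1.44 in WT-HFD over WT-CT and -2.94 in cKO-HFD over WT-HFD. The skeletal muscle medians were 1.74 and -4.05. How much of the smooth muscle sum came from skeletal muscle RNA was not tested. The part of these cell types in the *Adamts5* differences was not tested. The neighbour of *Adamts5* on chromosome 16, *Adamts1*, had levels between 7.13 and 7.48 and passed in no comparison, as did *Adamts4* (5.56 to 5.91), the other classical aggrecanase, and *Adamts9* (7.40 to 7.80). Of the 6 probe sets of *Adamts9*, 1 passed 1.5-fold in cKO-CT over WT-CT, with a log2 ratio of 0.71, while the mean of the 6 gave 0.24.
*Adamts7*, whose product cleaves cartilage oligomeric matrix protein, was highest on cKO-HFD. The log2 level was 6.38 for WT-CT, 6.31 for cKO-CT, 6.46 for WT-HFD and 6.92 for cKO-HFD. It rose 1.52-fold in cKO-HFD over cKO-CT, and with each array centred on the median of all genes the log2 ratio was 0.58, just under 1.5-fold. *Adamts12*, its closest relative, was also highest on cKO-HFD, at 8.06 against 7.62 to 7.82 on the other arrays, and passed in no comparison. *Adamts10*, a protease of fibrillin microfibrils, had log2 levels of 6.84 in WT-CT and 7.09 in WT-HFD, and of 7.30 and 7.31 in the cKO groups. *Adamts14*, *Adamts16* and *Adamts17* stayed between 5.55 and 6.04. Of the 5 *Adamts17* probe sets, 1 passed 1.5-fold, in cKO-HFD over WT-HFD, but it lay below the background on every array and resolves no difference.
The other members above the background on all 4 arrays passed in no comparison. *Mmp11* ranged from 6.24 to 6.49, *Mmp19* from 7.25 to 7.57, *Mmp23* from 6.28 to 6.63, *Mmp24* from 5.46 to 5.59 and *Mmp28* from 7.29 to 7.63. Over the members above the background on all 4 arrays that passed in no comparison, the span between the highest and the lowest array was 0.13 to 0.61 on the log2 scale. Of the members below it on all 4, 0 passed, and their largest absolute log2 ratio was 0.39.

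Genes that work with this family were listed apart from the members. Of 7 *Adamts*-like genes, which lack the protease domain, 0 passed in any comparison. Of 12 *Adam* proteases, membrane relatives that shed cell surface proteins, 2 rose in cKO-HFD over cKO-CT, *Adam12* and *Adam23* (0.61 each), and 0 passed elsewhere. Of 6 plasminogen system genes, which start a cascade that activates *Mmp* precursors, *Plau*, the urokinase gene, rose over WT-CT in cKO-CT (0.60) and WT-HFD (0.62), and *Serpinf2* fell by 0.59 in cKO-CT, where it lay below the background. Of 5 genes of procollagen C-terminal processing, *Pcolce* (0.84) and *Pcolce2* (0.59) rose in WT-HFD over WT-CT, and 0 of 4 proprotein convertases passed. Of 5 cathepsins, *Ctss* (1.04) and *Ctsk* (0.93) rose in WT-HFD over WT-CT, and *Ctss*, a macrophage cathepsin, fell by 0.82 in cKO-HFD over WT-HFD. Among 6 other regulators, *Cd44*, which docks *Mmp* proteins at the cell surface, and *Tfpi2* rose in WT-HFD over WT-CT (0.70 and 0.60).
The substrates were also listed. Of 10 collagen genes, 5 rose in WT-HFD over WT-CT and 0 in the 3 other comparisons, with median log2 ratios of 0.58 in WT-HFD and 0.27 in cKO-CT over WT-CT. *Col6a3*, of the type VI collagen around adipocytes, had 0.96 in WT-HFD, followed by *Col6a2* (0.73), *Col6a1* (0.65), *Col3a1* (0.63) and *Col1a2* (0.62). Of 8 proteoglycan genes, 1 rose, *Ncan* in cKO-HFD over WT-HFD (0.63), and *Vcan*, which encodes versican, a substrate of *Adamts5*, had 0.58 in cKO-CT, just under 1.5-fold, and 0.39 in WT-HFD over WT-CT.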

How the data were processed

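RNA of subcutaneous adipose tissue from mice was measured on 4 Affymetrix MoGene 1.0 ST arrays, 1 pool per group. The authors deposited log2 values for each probe set, computed by RMA (background correction, quantile normalization across arrays, probe summary), with the RMA-Sketch procedure of the APT suite per the methods and Expression Console per the processing notes. Quantile normalization can hide a shift shared by most genes. Their detection P values were not used here. Probe sets were named by the platform annotation (21789 with 1 name, 1621 with several, 12146 with none), and a gene's level was the mean of its 1-name probe sets, with more than 1 for 3 members. Log2 ratios were taken between arrays, with no test, and 1.5-fold was the size used in the study. Members, lists and comparisons were chosen with earlier results of these data known. Named were all *Timp* genes, members above the *Olfr* level with or without a pass, and up to 3 genes of each other list with the largest ratios. *Elane*, the other marker genes, *Col3a1* and *Col1a2* were singled out after their values were seen. Counts were recomputed with other probe set rules, filters, sizes, centring and cyclic loess (span 0.7, 3 iterations). The counting step was tested on simulated data. The number of arrays limits the precision. Python 3.11.15, numpy 2.4.6, pandas 2.3.3, matplotlib 3.10.9, R 4.3.3 and limma 3.58.1 were used.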

Additional observations from a re-analysis of the deposited data

Results flagged for a closer look

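The genotype difference had opposite signs on the diets, and changed by at least 1.5-fold between them, for *Timp2* and *Mmp2*. For *Timp2* the log2 ratio of cKO over WT was 0.39 on CT and -0.78 on HFD, a change of -1.17 (-1.09 after cyclic loess). For *Mmp2* it was 0.39 and -0.36, a change of -0.74 (-0.67 after cyclic loess). These differences were not tested, since each rests on 1 array per group, and among all genes with a mean level over the *Olfr* background 8.95% met the same conditions, against 2 of 24 members. Skeletal muscle and stromal progenitor markers changed on the same arrays, and their part was not tested.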

How the results depend on the processing

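With 1 array per group, no spread between mice bounds any value, and levels within the *Olfr* range resolve no difference. Cyclic loess ended the call of *Timp3* (0.56) and centring that of *Adamts7* (0.58), and the probe set with the highest level changed no member's call. Centring left 1 member higher in cKO-HFD over cKO-CT. Counting probe sets one by one gave 2 higher in cKO-CT over WT-CT and 1 higher in cKO-HFD over WT-HFD, with median log2 ratios of 0.0929 in cKO-HFD over WT-HFD, 0.0041 in WT-HFD over WT-CT and 0.13 in cKO-HFD over cKO-CT. Over genes with a mean above the *Olfr* level the medians were 0.12 in cKO-CT and 0.13 in WT-HFD over WT-CT. With a mean log2 level of 7 as the lower bound they were 0.22 and 0.18, and -0.0213 in cKO-HFD over cKO-CT, where 0 members were then higher. After cyclic loess the medians were 0.0492 in cKO-CT over WT-CT and 0.0341 in cKO-HFD over cKO-CT. At 2-fold, 0 members were higher in cKO-CT over WT-CT, 0 lower in cKO-HFD over WT-HFD, 1 higher in WT-HFD over WT-CT and 0 higher in cKO-HFD over cKO-CT. The number of members above the background depended on the percentile of the receptor genes on every array. At the 99th percentile it was 17 for both genotypes on the control diet, and with high-fat feeding 18 (WT) and 16 (cKO). At the 90th percentile, control feeding gave 30 (WT) and 29 (cKO), and high-fat feeding 31 and 28. The cause of these shifts was not tested beyond the genes and sizes each setting keeps. The differences of *Timp2* and *Mmp2* between diets kept their sign under centring, cyclic loess and the highest probe set, alternatives chosen after seeing the data. No paired analysis was possible because each group holds 1 array.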
